A study of Mus musculus with 8 samples.

Results

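The genes described are 8 that mark the formative and primed states of pluripotency: Otx2, Pou3f1, Zic2, Grhl2, Dnmt3a, Dnmt3b, Sfrp2 and Lef1. They were looked up by symbol in a RefSeq gene table of the build GRCm38.p6, which has the coordinates of mm10 and 21900 protein-coding genes, and all 8 were in it. Each was taken as its gene body with 50 kb on each side. In these stretches lay 42 of the 48730 regions of Ubc9-depleted cells, 47 of the 46847 of Ubc9-control cells, 58 of the 58039 of H1 triple-KO cells and 41 of the 55489 of H1 WT cells.

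The study mapped open chromatin in mouse embryonic stem cells with ATAC-seq, an assay that lets a transposase cut and tag DNA where chromatin is accessible. Cells of all 4 groups had been kept for 4 passages in 2i/LIF, a medium that holds stem cells in the naive state. The first pair used the line v6.5. Ubc9-depleted cells carry a TET-OFF system in which doxycycline, given for 72 hours, shuts off Ubc9, which attaches the small protein SUMO to its targets, and Ubc9-control cells are labelled with the same line and no induced depletion. The drug and the depletion cannot be told apart in that pair. In the second pair, H1 triple-KO cells (H1.2-/-H1.3-/-H1.4-/-) lack those linker histones, which bind where DNA enters and leaves the nucleosome, and H1 WT cells carry them. The labels take both from an earlier publication and do not say how many clones were used. Each of the 8 samples is 1 of 2 replicates of its group, but the authors deposited 1 list of regions per group, made from both. No spread between replicates can be had, so no difference below has a test or a p-value.

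A region carries a score that the authors deposited, read here as minus 10 times log10 of the peak caller's p. The lowest in any list is 50, which then stands for a p of 1e-05. The score ranks regions within a list. Some scores of the Ubc9 lists run to more decimals (97.5125) than those of the H1 lists (166.81). The 2 pairs may thus not hold the same quantity, and how either was made is not known. The read depth is unknown. A region was called shared when it overlapped a region of the other list of its pair by at least 1 bp, and unshared otherwise. "In depleted cells only" and the like mean unshared within the pair. Over all regions within 50 kb of a protein-coding gene, 38.6% of those of depleted cells and 41.4% of those of control cells were unshared, as were 30.4% in triple-KO cells and 27.1% in WT cells.

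Whether the lists look like stem cells was checked on gene starts, as windows of 1000 bp on each side of every start listed for a gene. Of 8 stem cell markers, Sox2, Nanog, Zfp42, Klf4 and Sall4 had a gene-start region in all 4 lists, while Lin28a had none in any list. Pou5f1 had none in triple-KO cells and one in WT cells (94.6), and one in both depleted (65.4) and control cells (86.4). Esrrb had one in triple-KO cells alone. Of 6 fibroblast or feeder markers none had one in all lists, but Col1a1 had one in both Ubc9 lists and Col1a2 in both H1 lists. Of 3 trophectoderm markers, Gata3 had one in all 4 lists, and Cdx2 and Elf5 had none. Of 3 primitive endoderm markers, Sox17 had one in both Ubc9 lists alone and Gata4 had none. Gata6, the third, had one in control, triple-KO and WT cells and none in depleted cells. Of the 4 genes listed for 2-cell-like cells, Zscan4c, Zscan4d and Zscan4f had one in depleted cells and in no other list. Usp17la, the fourth, had none in any list. Regions of triple-KO cells covered 0 bp of H1f2 and of H1f3, against 725 bp and 242 bp for WT cells. H1f4 had 20 bp in triple-KO cells and 38 bp in WT cells. Both H1 lists had a region within 1000 bp of a start of each of these genes.

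As background, naive stem cells resemble the epiblast before implantation. On leaving that state they switch on a shared set of genes before they choose a lineage. OTX2 and POU3F1 are transcription factors that take part in the change of enhancers at this step, and DNMT3A and DNMT3B then place new DNA methylation. The Wnt pathway acts at the same step through TCF and LEF factors at its targets.

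At gene starts, 4 of the 8 genes differed within the Ubc9 pair and 2 within the H1 pair. Of the 8 genes, 7 had a gene-start region in depleted cells and 5 in control cells. In the H1 pair 5 had one in triple-KO cells and 3 in WT cells. Over all protein-coding genes the shares with one were 55.2% in depleted and 53.9% in control cells, and 51.9% in triple-KO and 52.4% in WT cells. Dnmt3b, Grhl2 and Sfrp2 had one in depleted cells only, where the share over all protein-coding genes was 5.03%. Otx2 had one in control cells only (3.79% of all genes). Pou3f1 and Dnmt3a had one in triple-KO cells only (4.07%), and 0 of 8 in WT cells only (4.53%). Zic2 and Lef1 had one in all 4 lists, at Lef1 through the third of its listed starts. The 8 genes were chosen with earlier results of these data known, so their counts cannot show an excess over the shares of all genes.

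**Figure D1:**
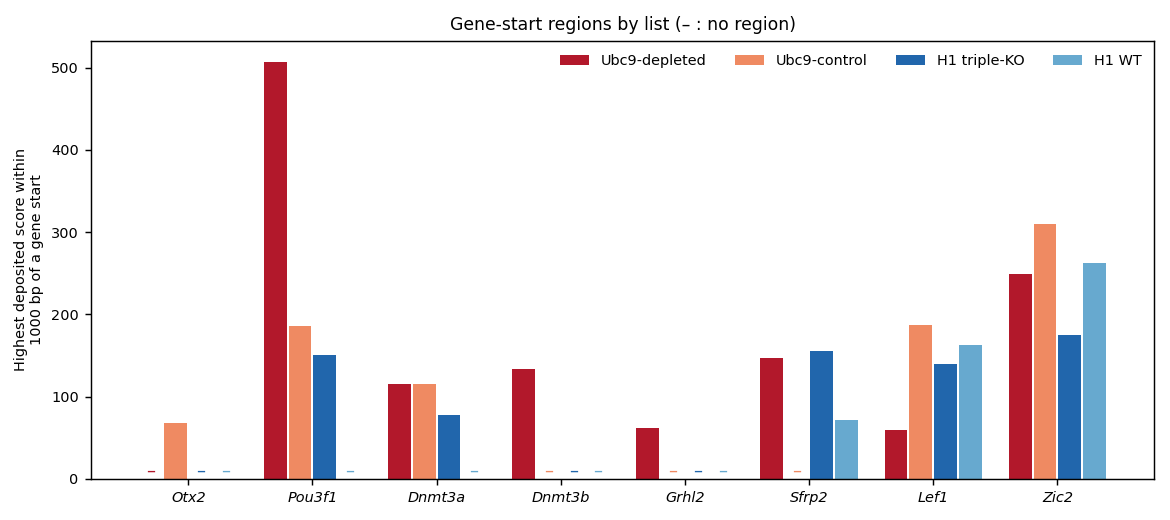
Highest deposited score of a region within 1000 bp of a gene start (vertical axis) for each gene, with a bar for each list and a dash where a list held no region. For Pou3f1, Grhl2 and Zic2 both annotated gene ends were used. Dnmt3b and Grhl2 have a bar in depleted cells alone, and Zic2 and Lef1 have 4 bars each.

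Letters are shown, with motifs in capitals, for starts at which lists differed, and for the third start of Lef1, which all 4 lists held, to set beside its first. The second starts of Dnmt3a and Lef1, whose stretches overlap those of the first, and the fourth of Lef1, where the control region covered none of the bases before it, also differed and are not shown. The letters are the 250 bases before the listed start in RefSeq's GRCm38.p6 table, 5′ to 3′. The motifs searched on both strands were the OTX2-type motif TAATCC, the octamer ATGCAAAT of POU factors, the TCF/LEF motif CTTTGAT, the GRHL half-site AACCGG, the GC box GGGCGG, the CCAAT box and TATAAA. No hit in these sequences overlapped another. A hit describes the letters and is not a bound site.
Dnmt3b, chr2:153649199-153649448, plus strand: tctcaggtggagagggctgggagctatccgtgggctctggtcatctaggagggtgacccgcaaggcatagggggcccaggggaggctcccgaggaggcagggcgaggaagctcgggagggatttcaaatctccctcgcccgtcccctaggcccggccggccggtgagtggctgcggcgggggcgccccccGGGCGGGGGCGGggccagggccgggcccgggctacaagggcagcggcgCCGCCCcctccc
Sfrp2, chr3:83766071-83766320, plus strand: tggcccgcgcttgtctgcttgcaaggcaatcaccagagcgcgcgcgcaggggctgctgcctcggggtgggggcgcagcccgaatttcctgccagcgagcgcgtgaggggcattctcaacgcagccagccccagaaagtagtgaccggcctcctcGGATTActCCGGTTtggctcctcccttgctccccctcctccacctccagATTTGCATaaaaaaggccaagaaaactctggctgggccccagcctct
Dnmt3a at the first start, chr12:3806730-3806979, plus strand: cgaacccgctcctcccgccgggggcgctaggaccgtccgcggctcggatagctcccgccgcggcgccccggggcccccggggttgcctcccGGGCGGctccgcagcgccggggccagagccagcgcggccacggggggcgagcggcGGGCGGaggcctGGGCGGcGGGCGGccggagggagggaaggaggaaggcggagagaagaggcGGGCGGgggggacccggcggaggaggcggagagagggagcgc
Lef1 at the first start, chr3:131110047-131110296, plus strand: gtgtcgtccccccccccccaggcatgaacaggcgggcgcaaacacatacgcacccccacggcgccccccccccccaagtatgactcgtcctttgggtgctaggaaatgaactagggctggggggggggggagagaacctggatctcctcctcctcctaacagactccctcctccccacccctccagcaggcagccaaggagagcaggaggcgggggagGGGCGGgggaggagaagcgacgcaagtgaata
Lef1 at the third start, chr3:131112541-131112790, plus strand: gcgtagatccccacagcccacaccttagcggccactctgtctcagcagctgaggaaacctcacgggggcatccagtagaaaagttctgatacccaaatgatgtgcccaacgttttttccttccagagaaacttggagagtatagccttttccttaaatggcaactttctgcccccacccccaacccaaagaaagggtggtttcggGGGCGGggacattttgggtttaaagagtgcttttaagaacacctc
Otx2 at the fourth start, chr14:48662735-48662984, minus strand: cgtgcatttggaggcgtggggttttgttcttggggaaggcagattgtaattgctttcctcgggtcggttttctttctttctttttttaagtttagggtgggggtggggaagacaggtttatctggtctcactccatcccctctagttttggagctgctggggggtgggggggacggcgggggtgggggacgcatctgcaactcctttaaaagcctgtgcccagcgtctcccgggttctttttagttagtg
Dnmt3b has 3 GC boxes and the first start of Dnmt3a has 5. A GC box was in 42.6% of the 21263 promoters of protein-coding genes in that table. Sfrp2 has none, but holds 1 octamer, 1 OTX2-type motif and 1 GRHL half-site. The octamer was in 1.58% of all promoters, the OTX2-type motif in 5.82% and the GRHL half-site in 6.54%. Each of the Lef1 starts shown has 1 GC box and no TCF/LEF motif, and the fourth start of Otx2 has no hit.

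Base composition differed between these promoters. GC content was 82.4% at Dnmt3a, 75.2% at Dnmt3b, 66.4% at the first and 50.8% at the third start of Lef1, 63.6% at Sfrp2 and 53.6% at the fourth start of Otx2, with a median of 55.6% over all promoters. The observed-to-expected CpG ratio was 0.938 at the first start of Dnmt3a, above that of 87.9% of promoters. It was 0.608 at Dnmt3b and 0.640 at Sfrp2, and 0.400 at the first and 0.375 at the third start of Lef1, around a median of 0.530 over all promoters. Dnmt3b and Sfrp2, with a region in depleted but not control cells, thus lay near the middle of the table in CpG ratio. So did the fourth start of Otx2, where control but not depleted cells had a region. The first start of Lef1, also with a region in control but not depleted cells, lay lower. Grhl2, which also had a gene-start region in depleted but not control cells, is not in the promoter table.

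Dnmt3b encodes a de novo DNA methyltransferase of the early embryo. It lies on chromosome 2 from 153649411 to 153687730 and has 1 listed start, at 153649449. A region of depleted cells from 153649232 to 153649648, with a score of 134.0, spanned that start and 217 of the 250 bases printed. Control, triple-KO and WT cells had no region within 1000 bp of it. The score was higher than that of 52.3% of regions in the depleted list, so it was a region of middle rank. No list held a region inside the rest of the gene.

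The surroundings of Dnmt3b also varied. The gene Commd7 lies there too, so sites outside Dnmt3b cannot be assigned to Dnmt3b. At 26.7 kb and 37.2 kb before the start, all 4 lists had a region. At 37.2 kb the scores were 101.8 in depleted and 102.7 in control cells, and 189.8 in triple-KO and 149.7 in WT cells. The scores at 26.7 kb were 123.4 in depleted and 181.6 in control cells, and 121.2 in triple-KO and 115.4 in WT cells. WT cells had only these 2 regions in the whole stretch, whereas triple-KO cells had 6, of which 4 were unshared. The highest-scoring of the 4 (156.9) lay 9.94 kb before the start and in no other list. Another, at 48.9 kb (138.2), was also in control cells (68.1). A site 45.2 kb after the start was in depleted (72.5) and triple-KO cells (102.8) and in neither control nor WT cells. It was 1 of 2 sites of that kind at the 8 genes, 2.60% of their sites against 1.41% at all protein-coding genes.

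Dnmt3a, the other de novo methyltransferase, lies on chromosome 12 from 3801559 to 3914443 with 3 listed starts. Around the first, at 3806980, scores were 115.1 in depleted cells and 115.2 in control cells, and 77.1 in triple-KO cells with no region in WT cells. The region of depleted cells was 1893 bp wide and covered all 250 bases printed. That of control cells was 452 bp wide and ended 303 bp before the start, covering 0 of them. The triple-KO region was 153 bp wide, ended 498 bp before the start and ranked low, above 15.9% of its list. Widths also differ between whole lists, with medians of 431 bp in depleted, 367 bp in control and 259 bp in triple-KO cells.

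Outside Dnmt3a some sites were in all 4 lists. The genes Dtnb, Pomc and Efr3b also lie in the stretch, so these sites cannot be assigned to Dnmt3a. At 15.0 kb before the first start the scores were 142.45 in depleted and 140.9 in control cells, and 332.0 in triple-KO and 208.4 in WT cells. At 153.0 kb after it they were 164.2 in depleted and 204.0 in control cells, and 200.2 in triple-KO and 165.2 in WT cells.

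Inside Dnmt3a neither list of the Ubc9 pair held a region away from the start. In the H1 pair a site 83.0 kb after the first start scored 127.1 in triple-KO cells and 281.6 in WT cells. It lies 1508 bp before the third start, so within 2500 bp of a start WT cells count as having a region and Dnmt3a no longer differs. Triple-KO cells had 1 further region in the gene body (93.0) and WT cells 2 (151.6 and 59.55), all unshared. In all, Dnmt3a had 2 regions in depleted cells only and 0 in control cells only, and 3 in triple-KO cells only against 4 in WT cells only. One of the 4 is part of a site that triple-KO cells also held, since the WT list has it as 2 pieces.

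Pou3f1, also called Oct6, encodes a POU-domain transcription factor and lies on chromosome 4 from 124657646 to 124660655. Its start is not in the promoter table, so both ends of the gene were used. At the lower-coordinate end the score was 507.5 in depleted cells and 186.2 in control cells, and 150.1 in triple-KO cells, with no region in WT cells. This was the highest score of any region of depleted cells at the 8 genes, above 94.7% of that list, while the control region stood above 70.5% of its own. Region widths were 1338 bp in depleted and 1056 bp in control cells, where the medians of the whole lists were 431 bp and 367 bp.

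Outside Pou3f1, depleted cells had a region of score 263.7 at 30.7 kb on the lower-coordinate side (chromosome 4, 124626758 to 124627223) that no other list held. Depleted cells had none at 24.2 kb, where control cells had a region of their own (113.8). They also had none at 43.2 kb, where control (143.2), triple-KO (81.3) and WT cells (57.3) had one. On the other side, 3 sites were in all 4 lists. The scores at the nearest were 234.8 in depleted and 237.1 in control cells, and 312.6 in triple-KO and 206.9 in WT cells. The sites lay at 36.0 kb, 43.3 kb and 51.5 kb, where the genes Utp11 and Fhl3 also lie, so they cannot be assigned to Pou3f1.

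Otx2 encodes a homeodomain transcription factor that marks the exit from the naive state and later the anterior brain. It lies on the minus strand of chromosome 14 from 48656781 to 48667644 with 4 listed starts. None of the 4 lists had a region within 1000 bp of its first 3 starts. At the fourth, at 48662734, depleted cells had none, while control cells had a region of score 67.8 that covered 169 of the 250 bases printed and ranked above 6.94% of its list. Neither H1 list had one there. The call at Otx2 rests on this start, since the outermost start and both gene ends had no region in either list of the Ubc9 pair. WT cells alone had a region (59.7) 1.42 kb before the first start.

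The strongest regions at Otx2 were distal and shared. At 33.5 kb before the first start the scores were 213.8 in depleted and 583.1 in control cells, and 356.7 in triple-KO and 510.7 in WT cells. The control value was the highest of any region of the Ubc9 pair at the 8 genes. At 42.1 kb the scores were 163.1 in depleted and 228.9 in control cells, and 271.4 and 415.6 in triple-KO and WT cells. Another site, at 49.1 kb, was absent from depleted cells and present in control (66.1), triple-KO (246.7) and WT cells (170.6). Otx2 had 0 regions in depleted cells only and 2 in control cells only, and 0 in triple-KO cells only against 2 in WT cells only. One of these 2 (166.8) is a piece of a site 12.7 kb after the first start that all 4 lists held.

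Zic2 encodes a zinc-finger factor of the primed state and the neural plate. It lies on chromosome 14 from 122475384 to 122480328. Zic5 and Pcca also lie within the 50 kb, so sites outside Zic2 cannot be assigned to Zic2. The start of Zic2 is not in the promoter table, and every list had a region at its lower-coordinate end. A site spanning the lower-coordinate end scored 248.5 in depleted and 309.7 in control cells, with widths of 2086 bp and 2076 bp. It scored 175.3 in triple-KO and 262.0 in WT cells, each of which lists it as 2 pieces. Of 8 sites at Zic2, 4 were in all 4 lists. One, 41.0 kb on the lower-coordinate side, scored 76.3 in depleted and 187.1 in control cells, and 375.9 in triple-KO and 393.7 in WT cells. Another, 50.3 kb from that end on the other side, scored 312.3 in depleted and 140.8 in control cells, and 331.7 in triple-KO and 296.7 in WT cells. Depleted cells had 0 unshared regions and control cells 3, with scores from 60.5 to 74.9. Triple-KO cells had 1 unshared region (66.5) and WT cells 2 (70.2 and 161.2).

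Grhl2 encodes a factor of epithelial identity that opens enhancers in formative cells, and lies on chromosome 15 from 37232821 to 37363569. The gene Ncald also lies in this stretch, so sites outside Grhl2 cannot be assigned to Grhl2. Regions in the stretch varied between lists. Of 8 sites, 0 were in all 4 lists and 6 were in 1 list alone. At the lower-coordinate end depleted cells had a region from 37232878 to 37233121 of score 61.6, above 3.95% of its list, and no other list had one within 1000 bp. The nearest in triple-KO cells (96.35) ended 1095 bp outside the gene, and another lay inside it at 6.03 kb (148.5). WT cells had 1 region in the whole stretch. That region (162.5) lay 168.9 kb from the lower-coordinate end, past the gene, at a site also in depleted (108.0) and control cells (179.6). Beside it, at 170.9 kb, depleted cells alone had a region of score 172.45, and inside the gene, at 57.2 kb, another of 54.5. Control cells alone had one inside the gene at 122.0 kb (74.7). A site 29.5 kb on the lower-coordinate side belonged to the Ubc9 pair alone, with 267.7 in depleted and 86.7 in control cells.

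Sfrp2 encodes a secreted inhibitor of Wnt ligands and lies on chromosome 3 from 83765750 to 83774314. It was the only gene of the 8 at which the lists of the Ubc9 pair shared no region. The region at its start, at 83766321, scored 146.4 in depleted cells, with none in control cells, and 155.3 in triple-KO and 71.0 in WT cells. It covered all 250 bases printed in depleted cells and in triple-KO cells, and 201 of them in WT cells. The control list was thus the one that lacked it.

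Away from the Sfrp2 start the lists differed at each of the 8 sites. Sites at 14.8 kb and 1.88 kb before the start and 31.7 kb after it were absent from depleted cells and present in control, triple-KO and WT cells. At 14.8 kb the scores were 145.5 in control cells, 232.0 in triple-KO cells and 210.9 in WT cells, and at 31.7 kb they were 116.9 in control cells, 141.0 in triple-KO cells and 122.0 in WT cells. At 1.88 kb the scores were 130.3 in control cells, 177.7 in triple-KO cells and 229.4 in WT cells. That site is why the start differs within 1000 bp and not within 2500 bp, where control cells count as having a region. A site 20.9 kb after the start was in depleted (120.8) and triple-KO cells (78.7) and in neither control nor WT cells. The remaining 4 sites were in triple-KO cells alone. In the H1 pair all 4 WT regions were shared, and triple-KO cells had 5 more, with scores from 50.4 to 163.7. The highest of the 5 lay inside the gene, 7.16 kb after the start.

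Lef1 encodes a factor that binds DNA for the Wnt pathway. It lies on chromosome 3 from 131110297 to 131224357, has 4 listed starts and held 20 of the 77 sites at the 8 genes. At its first start (131110297), depleted cells had no region and control cells had one of score 80.5 that covered 154 of the 250 bases printed, with none in the H1 lists. The third start, further into the gene at 131112791, had a region in all 4 lists. There the scores were 58.8 in depleted and 187.2 in control cells, and 139.7 in triple-KO and 162.7 in WT cells. The depleted region ranked above 2.36% of its list and the control region above 70.8% of its own. At the fourth start, at 131156294, control cells alone had a region (145.9). With the outermost start alone, Lef1 thus differed within the Ubc9 pair, in control cells only.

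Several distal sites at Lef1 were held in common. At 26.4 kb before the first start the scores were 225.0 in depleted and 338.4 in control cells, and 336.1 in triple-KO and 285.7 in WT cells. Sites at 25.2 kb and 7.88 kb were also in all lists. Past the far end, where the gene Hadh lies, sites at 127.7 kb and 148.9 kb after the first start were absent from depleted cells and present in control, triple-KO and WT cells. At 148.9 kb the scores were 132.6 in control cells, 357.2 in triple-KO cells and 137.5 in WT cells. Triple-KO cells had 7 unshared regions at Lef1, with scores from 50.0 to 145.3, and WT cells had 0.

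**Figure D2:**
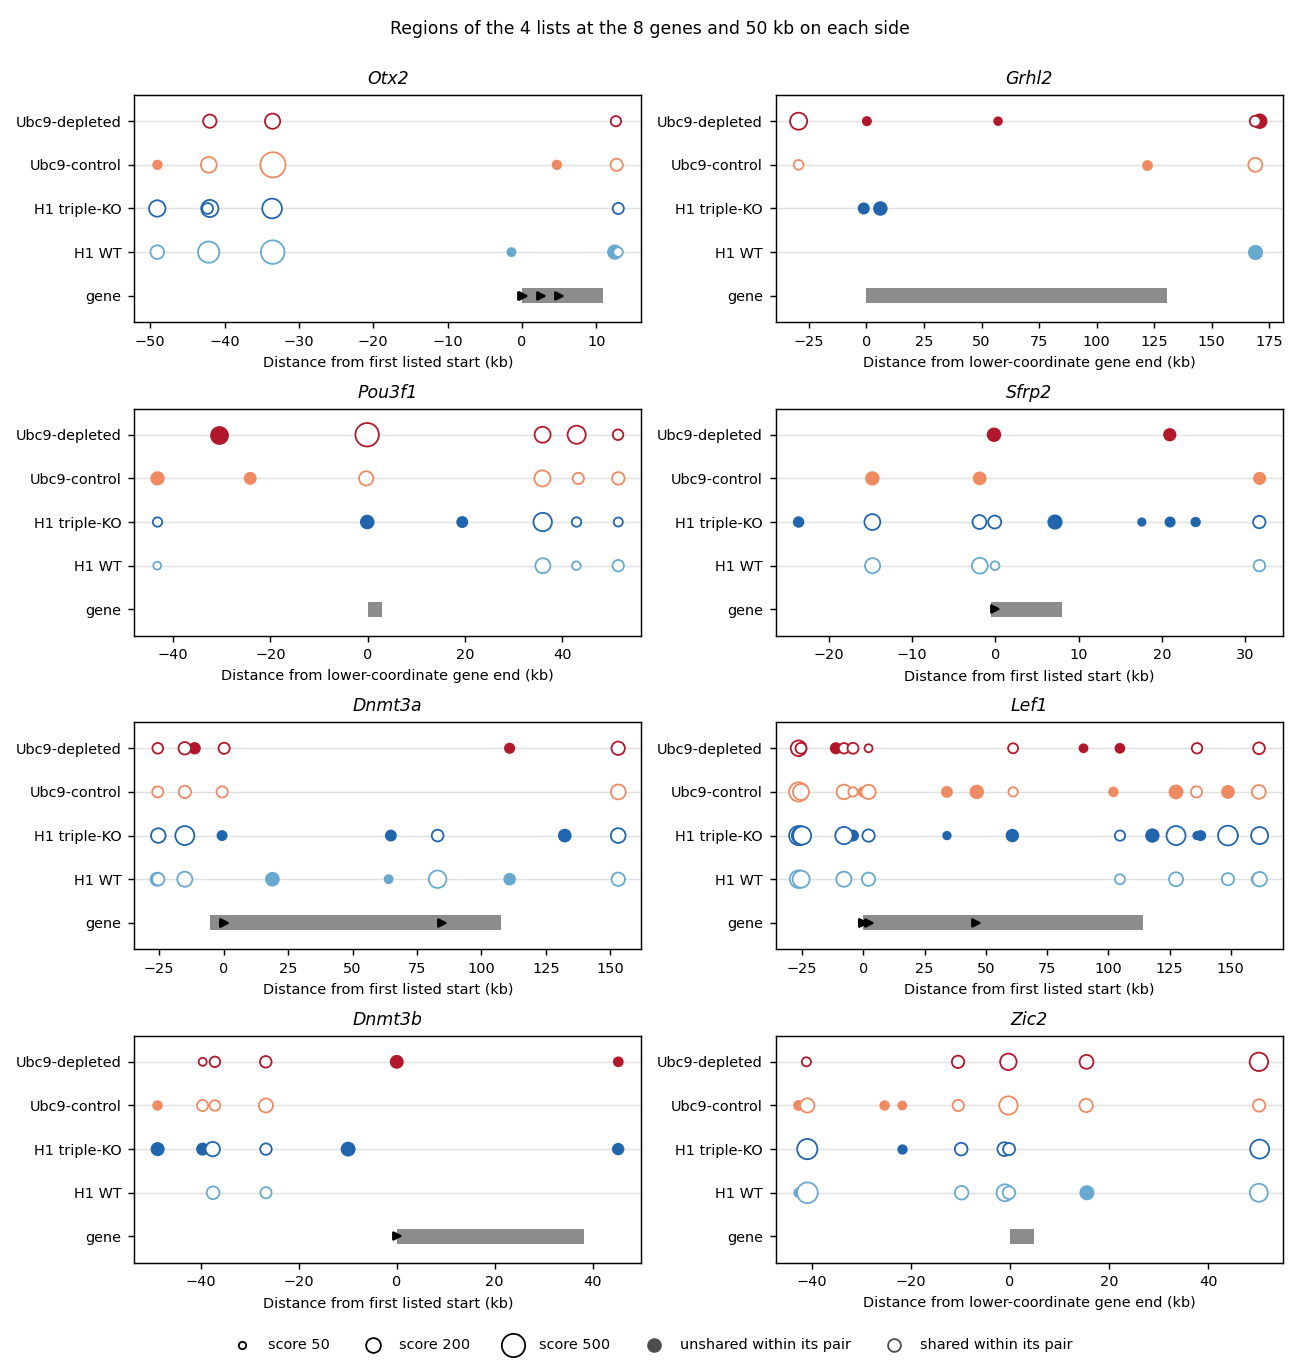
Regions of the 4 lists at each gene, plotted by the distance of their centre from the first listed start, or from the lower-coordinate gene end for Pou3f1, Grhl2 and Zic2, in kb. Circle area grows with the deposited score, filled circles are unshared within their pair, grey bars are gene bodies and arrowheads listed starts. Otx2 and Zic2 show columns of open circles in all 4 lists, whereas Grhl2 has 0 such columns.

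Unshared regions were then counted over the 8 genes. Depleted cells had 13 unshared of 42 regions (31.0%, exact Clopper-Pearson 95% interval 17.6 to 47.1) and control cells 18 of 47 (38.3%, 24.5 to 53.6). Triple-KO cells had 24 unshared of 58 (41.4%, 28.6 to 55.1) and WT cells 9 of 41 (22.0%, 10.6 to 37.6). Within 10 kb of the genes the order in the Ubc9 pair turned, with 9 in depleted and 7 in control cells. The intervals cover counting error only, and regions at 1 gene are not independent. All 4 contain the share over all protein-coding genes given above. Being this wide, they cannot show that a share matches the background.

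By gene, 3 of the 8 (Dnmt3a, Dnmt3b and Grhl2) had more unshared regions in depleted than in control cells, which held for 36.3% of all genes, and 5 had more in control cells (38.2%). In the H1 pair 5 had more in triple-KO cells (39.9%) and 3, namely Otx2, Dnmt3a and Zic2, more in WT cells (30.7%). When regions up to 500 bp apart counted as shared, Dnmt3a had 3 in triple-KO cells and 3 in WT cells, and Otx2 0 and 1. Sfrp2 and Lef1 gave 12 of the 24 triple-KO regions and 0 of the 9 WT regions. Both lie on chromosome 3, where unshared regions numbered 1944 in triple-KO and 609 in WT cells, a ratio of 3.19 against 1.14 over the genome. Without these genes the counts were 12 in triple-KO and 9 in WT cells. The part of the chromosome in the counts at Sfrp2 and Lef1 was not tested.

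**Figure D3:**
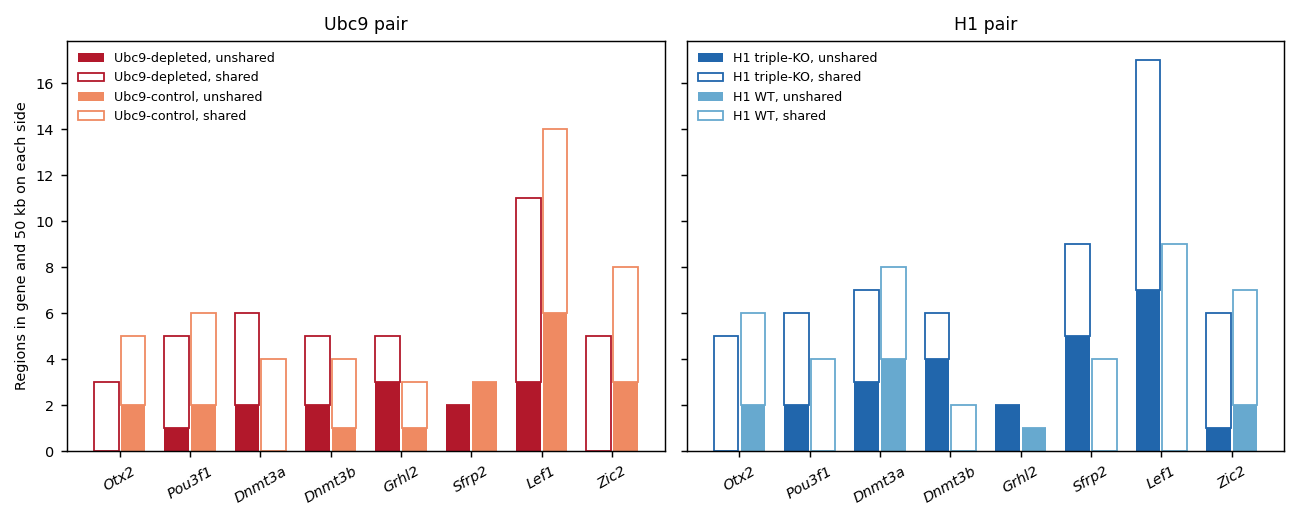
Number of regions in each gene and 50 kb on each side (vertical axis), with filled parts unshared and open parts shared within the pair, for the Ubc9 pair on the left and the H1 pair on the right. At Sfrp2 both bars of the Ubc9 pair are fully filled, and at Lef1 the triple-KO bar reaches 17 regions against 9 in WT cells.

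Regions of any list that overlapped were joined into sites to compare all 4 lists, which gave 77 sites at the 8 genes and 72269 at all protein-coding genes. Of the 77, 20 (26.0%) were in all 4 lists and 31 (40.3%) in 1 list alone, against 24.7% and 42.2% of all sites. Triple-KO cells alone held 13 (16.9%, against 12.5% of all sites), depleted cells alone 8 (10.4%, against 15.9%), control cells alone 7 (9.09%, against 5.18%) and WT cells alone 3 (3.90%, against 8.72%). Depleted cells alone lacked 7 sites that the other lists held (9.09%, against 10.3%). WT cells alone lacked 6 (7.79%, against 2.03%). Of these 6, one was at the lower-coordinate end of Pou3f1, one at the first start of Dnmt3a and one 39.7 kb before Dnmt3b. The others were 4.19 kb before and 61.2 kb and 136.0 kb after the first start of Lef1. Most of the sites in triple-KO cells alone lay at Sfrp2 and Lef1. Both genes are on chromosome 3, where unshared regions numbered 1944 in triple-KO and 609 in WT cells. No test was run on the shares of sites, nor on the part of that chromosome in them.

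**Figure D4:**
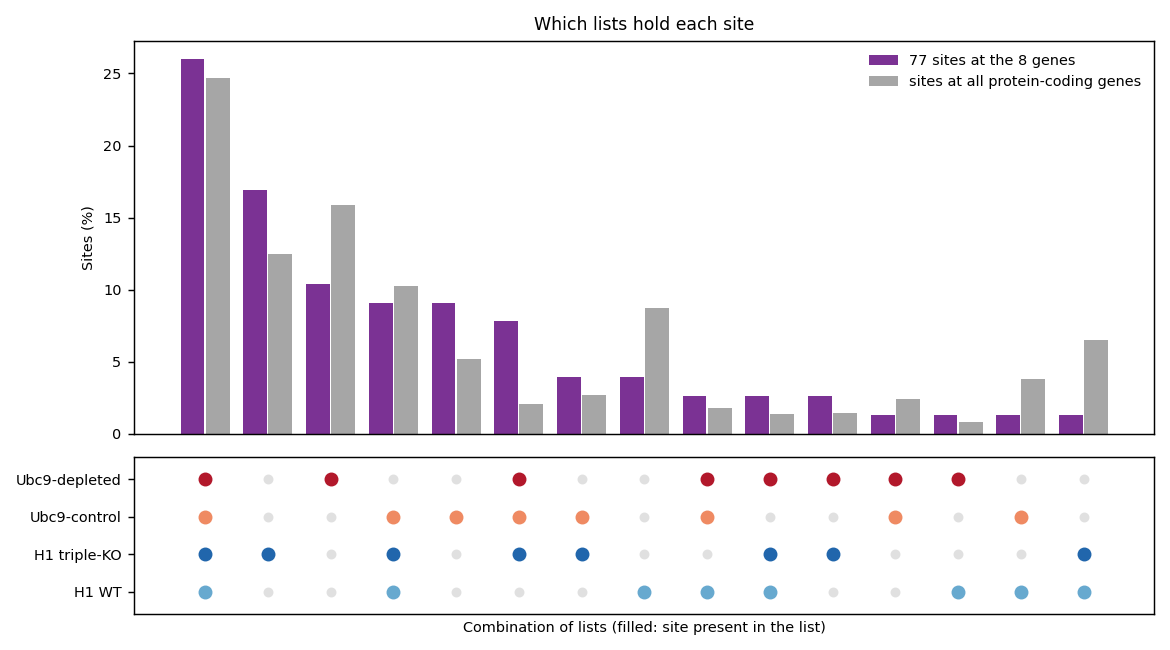
Percent of sites (vertical axis) in each combination of lists, given by filled dots beneath the bars, for the 77 sites at the 8 genes and the sites at all protein-coding genes. The highest pair of bars, 26.0% and 24.7%, is for sites in all 4 lists.

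Other formative and primed state genes, 23 in all, were looked at in the same windows. Of the 23, 12 had a gene-start region in depleted cells and 14 in control cells, and 14 each in triple-KO and WT cells, to be read against the shares over all genes given above. None had one in depleted cells only (5.03% of all genes). Utf1 (71.5), a chromatin factor of stem cells, and Tead2 (76.6) had one in control cells only (3.79% of all genes). Dnmt3l (261.9), a partner of the de novo methyltransferases without activity of its own, had one in triple-KO cells only (4.07%). Utf1 (89.3) had one in WT cells only (4.53%). Fgf5, a signal that marks the primed state, and Foxd3 had none in any list. Counted gene by gene, 26.5% of 98 regions of depleted cells were unshared, against 38.6% at all protein-coding genes. In control cells 41.9% of 124 were, against 41.4%. The shares were 21.8% of 119 in triple-KO cells, against 30.4%, and 27.2% of 125 in WT cells, against 27.1%. A region near more than 1 of these genes counted for each, and Zic5 lies in the stretch of Zic2.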

How the data were processed

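ATAC-seq regions of 4 groups of mouse embryonic stem cells were used. Each group has 2 replicates, and the authors deposited 1 list per group made from both, per the series' design text. The submitters' processing notes name the build mm10, MACS 1.4.2-1, Picard, CASAVA 1.8.2 and Bowtie2. Their settings, any shift of reads for the transposase and the way replicates were joined are not given in the sources used here. The value of each region is a score that the authors deposited, with no header, so its reading as minus 10 times log10 of p rests on its minimum of 50. H1 lists repeat peak names over pieces of 1 peak. A deeper library yields more regions, and depth is unknown.

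Regions were compared by overlap with Python 3.11.15 and pandas 2.3.3, and the overlap step was tested on simulated data. Listed starts came from a RefSeq promoter table that held 5 of the 8 genes and 79.9% of protein-coding genes. Both gene ends stood in for the rest. That table and the gene table give no exons for these regions. The 8 genes and all lists were chosen with earlier results of these data known. Named were all 8 genes, the regions at their starts, the highest-scoring regions, unshared regions among the leading 3 of a list, and genes of the other lists with a gene-start region in 1 list of a pair. Lin28a, Fgf5, Foxd3 and other regions named were chosen after their values were seen. Alternatives changed the flank, score, overlap and start window. Coverage of the gene depleted in the first pair is not reported here.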

Additional observations from a re-analysis of the deposited data

How the results depend on the processing

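Calls at gene starts depended on which starts counted. With the outermost start, both gene ends or a score minimum of 100 in the lists of a pair, the gene with a region in control cells only was Lef1 and not Otx2. The number in triple-KO cells only became 1 with both gene ends, when Dnmt3a dropped out. With 2500 bp it was Grhl2 and not Dnmt3a that joined Pou3f1, Sfrp2 was no longer in depleted cells only, and 1 gene, Otx2, had a region in WT cells only. With the score minimum, Grhl2 was no longer in depleted cells only, and Sfrp2 took the place of Dnmt3a in triple-KO cells only.

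Counts of unshared regions scaled with the stretch. With 10 kb they were 7 in control, 13 in triple-KO and 5 in WT cells. In gene bodies alone they were 6 in depleted and 6 in control cells, and 7 in triple-KO and 2 in WT cells. A score of at least 100 left 6 in depleted and 8 in control cells, and 11 in triple-KO cells. Without chromosome 3 genes triple-KO cells had 12. The other 37 of the 50 recomputed counts stayed within 1.5 times, among them those with overlap of 50% or gaps of 500 bp. The balance in the Ubc9 pair turned within 10 kb, with 9 in depleted against 7 in control cells. No paired analysis was possible because each group has 1 list made from both replicates, and no replicate could be left out. Leaving out chromosome 3 genes or Lef1, joining pieces of 1 peak, the outermost start and both gene ends were alternatives chosen after seeing the data.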

Other observations

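Naive state genes, looked at in the same windows, came last. Of 14, 12 had a gene-start region in depleted cells and 13 in control cells, where the shares over all protein-coding genes were 55.2% and 53.9%. None had one in depleted cells only (5.03% of all genes), and Dppa3 (105.7) had one in control cells only (3.79%). Of their 82 regions in depleted cells 12.2% were unshared, against 38.6% at all protein-coding genes. Of their 134 in control cells 44.0% were unshared, against 41.4%. By gene, 1 had more unshared regions in depleted cells (36.3% of all genes) and 12 more in control cells (38.2%). At the 8 formative and primed genes the split was 3 and 5. The difference was not tested. In the H1 pair 12 had a gene-start region in triple-KO cells (51.9% of all genes) and 12 in WT cells (52.4%). Esrrb (65.75) had one in triple-KO cells only (4.07% of all genes) and Fgf4 (167.2) in WT cells only (4.53%). Of 140 regions of triple-KO cells 22.9% were unshared, against 30.4% at all protein-coding genes. Of 139 of WT cells 20.1% were unshared, against 27.1%.

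Of 10 other protein-coding genes within 50 kb of the 8, 8 had a gene-start region in both depleted and control cells, and Pomc and Commd7 in no list. Over all protein-coding genes 55.2% had one in depleted cells and 53.9% in control cells. Dtnb, beside Dnmt3a, lacked one in triple-KO cells and had one in WT cells, the opposite of Dnmt3a. Ncald, beside Grhl2, had one in depleted and control cells and none in either H1 list.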
